A study of Mus musculus with 16 samples.

Results

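The genes described here encode the Nodal ligand and the proteins that transmit or restrain its signal in mouse embryonic stem cells (mESCs). They were Nodal, Lefty1, Lefty2, Tdgf1, Smad7, Cer1, Acvr2b and Foxh1, 8 genes measured by 10 probes among the 21154 genes that a one-colour microarray named by RefSeq accession. They were chosen by the measured array levels of Lefty2, which were higher in 2i medium than in serum in one line and lower in the others, so the levels of Lefty2 and the changes of all 8 genes between serum and 2i are given below as descriptions without a test. Testing was limited to probes that the scanner software rated well above background across all samples of 1 or more groups. Of the 10 probes 9, covering 7 of the 8 genes, met this, as did 13917 genes overall.

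RNA came from 16 samples of 3 mESC lines, each hybridised to an array of its own. J1 was the wild-type line. TKO lacked Dnmt1, Dnmt3a and Dnmt3b, the 3 DNA methyltransferases. 3B3l lacked the endogenous Dnmt3a and Dnmt3b and carried constitutive exogenous Dnmt3b and Dnmt3l. Serum medium held fetal calf serum and LIF at 500 U/ml. 2i medium was N2B27 with the MEK inhibitor PD0325901 at 1 uM, the GSK3 inhibitor CHIR99021 at 3 uM and LIF at 1000 U/ml, and cells stayed in it for 2 weeks. The groups were J1-serum (n = 4), J1-2i (n = 3), TKO-serum (n = 2), TKO-2i (n = 3), 3B3l-serum (n = 2) and 3B3l-2i (n = 2). J1-serum cells alone grew on inactivated SNLP feeder cells, whereas the other groups were kept feeder-free on gelatin, so feeders cannot be told apart from the other differences between J1-serum and each other group. Each modified genotype was represented by 1 line, and nothing in the labels says that replicates were separate cultures, so p-values measure the spread between these samples, which may be technical.

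Nodal is a secreted TGF-beta family ligand. It binds type I and type II activin receptors together with the co-receptor Tdgf1 (Cripto), and the receptors phosphorylate Smad2 and Smad3, which enter the nucleus with Smad4 and are brought to target genes by partners such as Foxh1. Lefty1 and Lefty2 are induced by the pathway and block it from outside the cell, forming a feedback loop. In mouse embryonic stem cells the pathway is active without added ligand and its loss in the embryo prevents formation of the primitive streak.

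Promoter windows of 4 of the 8 genes were taken from the RefSeq table (build GRCm38.p6, 250 bases before to 50 bases after the start). The 3 shown are those of the ligand, of its co-receptor gene and of Cer1, the only one of the 8 genes with no signal above background. Nodal lies at chr10:61417722-61418021 on the plus strand, Tdgf1 at chr9:110946109-110946408 and Cer1 at chr4:82885102-82885401, both on the minus strand. Capitals mark matches on either strand to AATCCACA (the Foxh1 motif), CAGAC (a Smad box), CTTTGAT (the TCF motif) or ATTTGCAT (the octamer).
Nodal: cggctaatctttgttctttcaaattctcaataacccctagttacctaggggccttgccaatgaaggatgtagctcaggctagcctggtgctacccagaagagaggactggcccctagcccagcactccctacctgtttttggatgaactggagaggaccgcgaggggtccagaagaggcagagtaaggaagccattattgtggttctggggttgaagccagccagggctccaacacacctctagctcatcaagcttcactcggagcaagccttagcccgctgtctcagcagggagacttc
Tdgf1: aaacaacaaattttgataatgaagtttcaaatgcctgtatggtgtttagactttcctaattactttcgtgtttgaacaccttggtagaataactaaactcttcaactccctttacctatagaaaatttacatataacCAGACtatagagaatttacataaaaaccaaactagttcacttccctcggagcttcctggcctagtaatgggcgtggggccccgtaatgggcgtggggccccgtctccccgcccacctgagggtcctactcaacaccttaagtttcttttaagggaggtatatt
Cer1: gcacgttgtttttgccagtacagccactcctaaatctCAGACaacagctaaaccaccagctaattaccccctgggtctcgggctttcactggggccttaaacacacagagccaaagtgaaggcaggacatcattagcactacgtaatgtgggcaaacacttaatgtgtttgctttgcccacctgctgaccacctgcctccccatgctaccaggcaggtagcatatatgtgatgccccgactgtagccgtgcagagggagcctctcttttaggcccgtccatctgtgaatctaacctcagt
The Nodal window held none of these letters. The Tdgf1 and Cer1 windows each held CAGAC, beginning 113 and 213 bases before the start, and so did the Acvr2b window. Among all 32851 promoters of the table, 49.6% held CAGAC, 3.73% CTTTGAT, 1.74% ATTTGCAT and 0.855% AATCCACA. GC content was 54% in the Nodal, 41.7% in the Tdgf1, 51.7% in the Cer1 and 73.3% in the Acvr2b window.

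The methyltransferase genes were checked against the labels. Dnmt1 lay between -1.70 and -1.42 in the TKO samples where it was still well above background, and between 1.61 and 2.45 in all others, on the log2 scale relative to the 75th percentile of each array that is used throughout. Dnmt3a was not well above background in any TKO or 3B3l sample. In 3B3l one Dnmt3b probe reached 5.44 to 6.01 against 2.88 to 3.08 in J1-serum, while the other Dnmt3b probes were below J1-serum. All 3 Dnmt3b probes gave signal in TKO, below that in J1, and where the probes lie relative to the deleted parts was not tested. The Dnmt3l probe read 5.80 to 5.89 in 3B3l-serum and 4.29 to 4.48 in 3B3l-2i, against 4.43 to 4.98 in J1-serum, 0.69 to 0.80 in J1-2i, 5.51 and 5.57 in TKO-serum and 2.75 to 3.06 in TKO-2i. It was thus lower in 2i in each line, 3B3l with its exogenous copy included. All 8 mESC markers were well above background in every sample. Of the 12 primitive endoderm markers, 10 were tested and all 10 were called lower in J1-2i than in J1-serum, where their summed level ran from 5.92 to 6.26 against 3.10 to 3.48. It ran from 2.38 to 3.64 in the TKO and 3B3l samples, and Gata4 and Gata6 were not well above background in any J1-2i sample. Of the 20 fibroblast markers, 16 were tested and 13 were called lower in J1-2i than in J1-serum, with summed levels of 5.997 to 6.25 and 6.56 to 6.82. The summed level was 6.57 to 6.71 in feeder-free 3B3l-serum, overlapping J1-serum, and 5.89 to 6.08 in 3B3l-2i. It was 5.396 to 5.59 in TKO-serum and 6.03 to 6.08 in TKO-2i, and in each of these lines 7 markers were called lower and 1 higher in 2i. The part of primitive endoderm and fibroblast RNA in the J1-serum values below was not tested, and in such bulk samples fewer cells of a type and less RNA per cell cannot be told apart. The arrays lay on 3 slides, and slide 3 held J1-serum replicate 1 and all 4 3B3l samples, so 3B3l and J1 share a slide only through that replicate.

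Lefty2 encodes an extracellular antagonist of Nodal and lies on chromosome 1. Its level was 2.79, 2.70, 2.90 and 2.78 in J1-serum and 5.01, 4.81 and 4.78 in J1-2i. In TKO it was 4.79 and 4.80 in serum and 3.85, 3.95 and 4.06 in 2i. In 3B3l it was 2.77 and 2.72 in serum and 1.61 and 1.75 in 2i. Lefty2 was thus higher in 2i than in serum in J1 and lower in both other lines, with no overlap between the media in any line, as was so for 63.2%, 62.5% and 61.3% of all genes in J1, TKO and 3B3l.

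In J1 the mean of Lefty2 was 2.07 (SE 0.09) higher in 2i on the log2 scale, a 4.21-fold difference. In TKO it was -0.84 (SE 0.11) and in 3B3l -1.07 (SE 0.12), or 1.79-fold and 2.10-fold lower in 2i. The J1 difference was 2.06 within slide 1 and 2.10 within slide 2. By mean level the order was J1-2i, TKO-serum, TKO-2i, J1-serum, 3B3l-serum and 3B3l-2i. J1-2i and TKO-serum overlapped, as did J1-serum and 3B3l-serum, and every other neighbouring pair in that order was apart. In serum the TKO mean lay 2.00 (SE 0.10) above J1 and the 3B3l mean -0.05 (SE 0.10) from it, whereas in 2i they lay at -0.91 (SE 0.09) and -3.19 (SE 0.11).

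**Figure D1:**
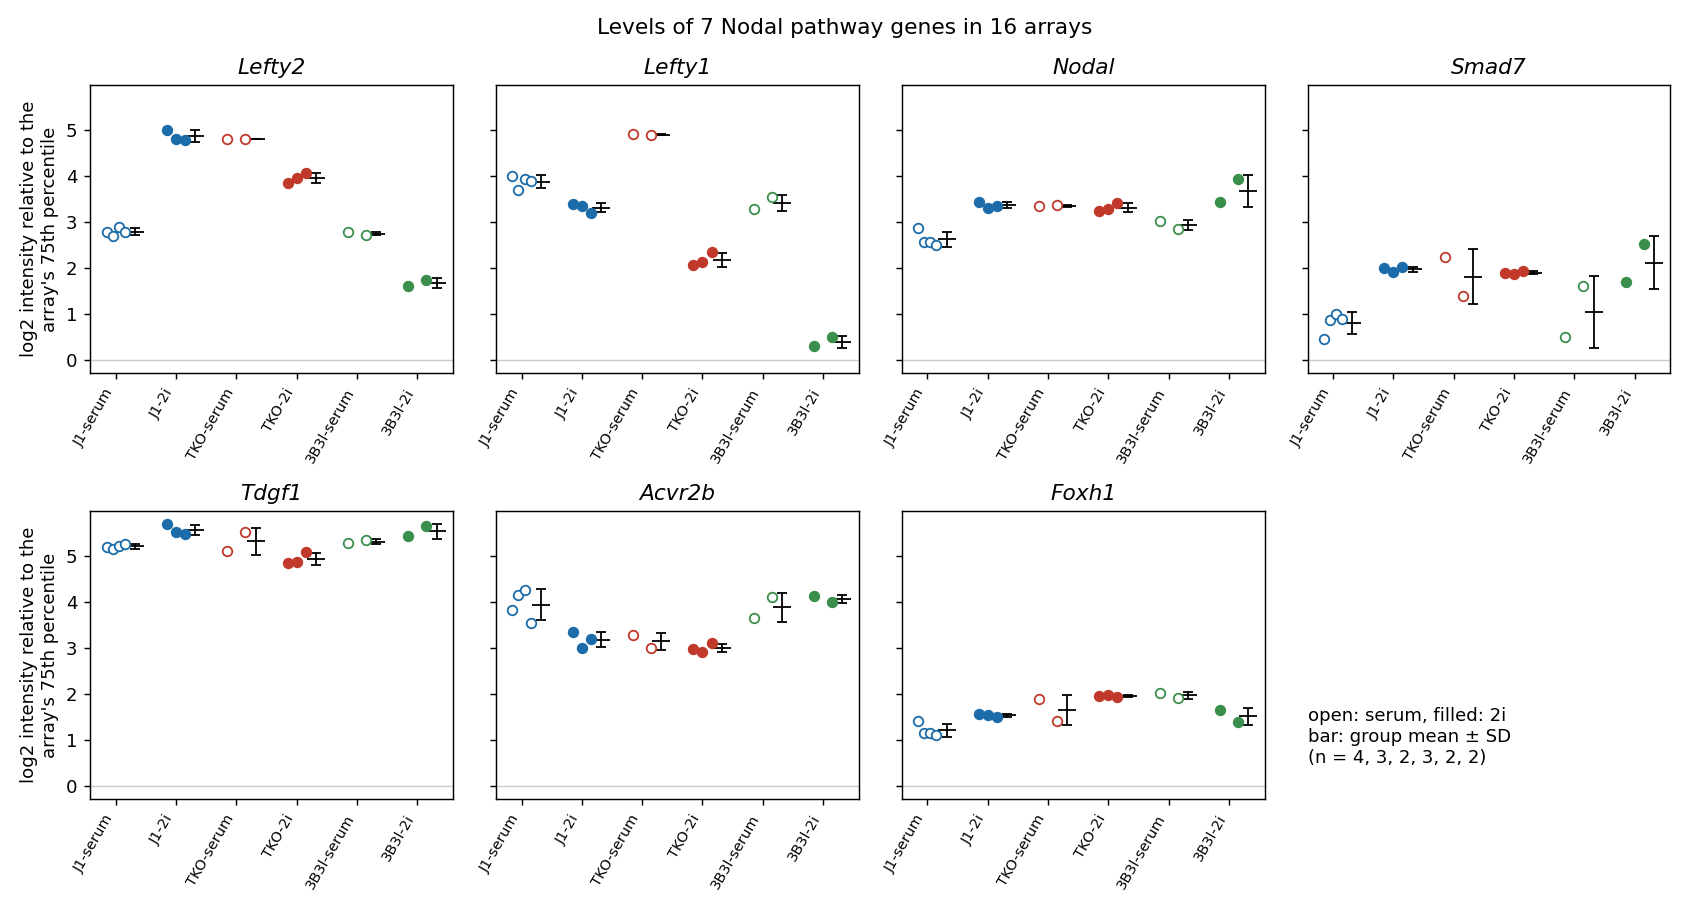
Level of the 7 genes with signal above background in each of the 16 arrays, as log2 intensity relative to the array's 75th percentile (y axis), by line and medium (x axis). Open points are serum, filled points 2i, and bars the mean ± SD; Lefty2 has a mean of 2.79 in J1-serum and 4.87 in J1-2i and is lower in 2i in TKO and 3B3l, and Smad7 replicates of TKO-serum and 3B3l spread widely.

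Lefty1, the related antagonist gene, also on chromosome 1, did not follow Lefty2 in J1. Its level was 3.9955, 3.69, 3.94 and 3.88 in J1-serum and 3.38, 3.35 and 3.20 in J1-2i. In TKO it was 4.90 and 4.89 in serum and 2.06, 2.13 and 2.35 in 2i. In 3B3l it was 3.28 and 3.54 in serum and 0.30 and 0.50 in 2i. All 2i samples of a line lay under all its serum samples, and the gap was narrowest in J1.

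The mean 2i difference of Lefty1 was -0.57 (SE 0.11) in J1, -2.71 (SE 0.13) in TKO and -3.01 (SE 0.14) in 3B3l, which is 1.48-fold, 6.56-fold and 8.08-fold lower. The differences from the J1 response were -2.15 (SE 0.17) in TKO and -2.45 (SE 0.18) in 3B3l. For Lefty2 they were -2.92 (SE 0.14) and -3.14 (SE 0.15). All these differences use the same J1 samples, and 15.2% of genes for TKO (7.74% above, 7.49% below) and 17.2% for 3B3l (8.6% above, 8.57% below) had a response called different from that of J1.

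**Figure D2:**
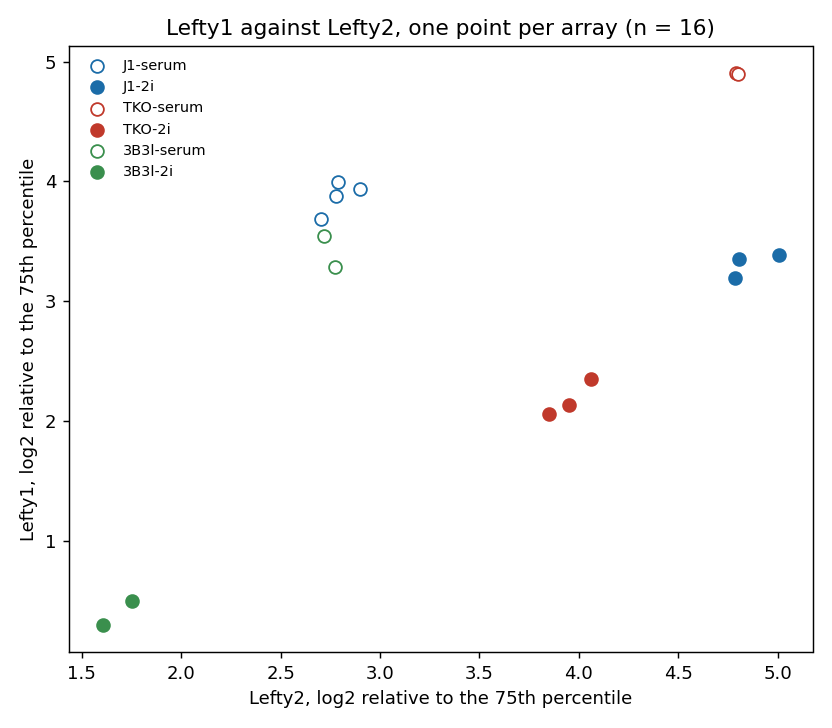
Lefty1 (y axis) against Lefty2 (x axis), both as log2 intensity relative to the array's 75th percentile, with 1 point per array; open points are serum and filled points 2i. The J1-2i arrays sit to the right of the J1-serum arrays and slightly lower, while the 3B3l-2i arrays hold the lowest values of both genes, 0.30 and 0.50 for Lefty1 and 1.61 and 1.75 for Lefty2.

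The lines were also compared with J1 within each medium, a contrast that did not choose Lefty1, and a difference was called at 2-fold or more with a limma adjusted p no higher than 0.05. Lefty1 was 2.03-fold higher in TKO than in J1 in serum (log2 1.02, SE 0.12, adjusted p = 3e-05), where 16.5% of all genes were called. In 2i it was 2.18-fold lower in TKO than in J1 (log2 -1.13, SE 0.12, adjusted p = 2.3e-05, 7.34% of genes called). In the same medium 3B3l was 7.52-fold below J1 (log2 -2.91, SE 0.13, adjusted p = 2e-08, 14.3% of genes called). In serum 3B3l lay -0.46 (SE 0.12, adjusted p = 0.0086) from J1, under the 2-fold limit (19.2% of genes called), and -0.33 (adjusted p = 0.12) without 3B3l-serum replicate 1. These were the only calls, 3 among the 24 tests of the 6 genes other than Lefty2 in the 4 comparisons, next to 14.3% of the 55668 such tests over all genes. The serum difference between TKO and J1 fell under 2-fold without J1-serum replicate 2 (log2 0.96) and within slide 1 (log2 0.99). Within slide 3, 3B3l-serum lay -0.58 from J1-serum replicate 1, and with slide as a block the difference in 2i was -3.07 (adjusted p = 1.4e-05).

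Lefty1 and Lefty2 are closely related in sequence, and the probe sequences were not used here, so hybridisation of one transcript to the other's probe was not tested. Between J1-serum and J1-2i the Lefty1 and Lefty2 probes moved in opposite directions, by -0.57 and 2.07. Both probes were lower in 2i in TKO, by -2.71 for Lefty1 and -0.84 for Lefty2. Both were also lower in 2i in 3B3l, by -3.01 and -1.07.

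Nodal itself, on chromosome 10, was measured at 2.86, 2.57, 2.56 and 2.49 in J1-serum and at 3.43, 3.31 and 3.35 in J1-2i. In TKO it was 3.34 and 3.37 in serum and 3.23, 3.27 and 3.42 in 2i, and in 3B3l 3.02 and 2.85 in serum and 3.43 and 3.92 in 2i. The 2i samples were above the serum samples in J1 and 3B3l, and the media overlapped in TKO.

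The mean 2i difference of Nodal was 0.74 (SE 0.12) in J1, -0.04 (SE 0.15) in TKO and 0.74 (SE 0.16) in 3B3l. J1-serum had the lowest mean of the 6 groups, and TKO-serum lay 0.73 above it (SE 0.14, limma adjusted p = 0.0011), 1.66-fold and so not called. The TKO and J1 samples overlapped in 2i (log2 difference -0.06, SE 0.13, adjusted p = 0.79). 3B3l differed from J1 by 0.31 (SE 0.14, adjusted p = 0.086) in serum and 0.31 (SE 0.15, adjusted p = 0.11) in 2i.

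Smad7, an intracellular inhibitor that targets the receptors and is itself induced by TGF-beta family signals, lies on chromosome 18. Its level was 0.46, 0.88, 1.01 and 0.89 in J1-serum and 2.00, 1.91 and 2.01 in J1-2i. In TKO it was 2.23 and 1.39 in serum and 1.90, 1.87 and 1.95 in 2i, and in 3B3l 0.50 and 1.61 in serum and 1.70 and 2.52 in 2i. The replicates of TKO-serum (SD 0.60), 3B3l-serum (SD 0.78) and 3B3l-2i (SD 0.58) were far apart, and the media overlapped in TKO.

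Smad7 was 1.16 (SE 0.27) higher in 2i in J1, a 2.24-fold difference, 0.09 (SE 0.33) in TKO and 1.06 (SE 0.36) in 3B3l. Without a 3B3l sample the 3B3l value ranged from 0.51 to 1.61. TKO-serum lay 0.9993 above J1-serum (SE 0.31, limma adjusted p = 0.021), just under 2-fold. That difference became a call when J1-serum replicate 2, 3 or 4 or TKO-serum replicate 2 was left out (1.02, 1.07, 1.03 and 1.42), and was 0.58 (adjusted p = 0.29) without TKO-serum replicate 1. Smad7 did not pass the test in the other line comparisons, with differences between -0.07 and 0.24.

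Tdgf1, the Nodal co-receptor encoded on chromosome 9, had 3 tested probes. The probe used for the gene, the one with the highest mean, read 5.18, 5.15, 5.20 and 5.26 in J1-serum, 5.69, 5.52 and 5.47 in J1-2i, 5.11 and 5.51 in TKO-serum, 4.84, 4.85 and 5.09 in TKO-2i, 5.26 and 5.34 in 3B3l-serum and 5.42 and 5.64 in 3B3l-2i. It was saturated on 1 J1-serum array, so differences at this probe may be compressed. At this probe TKO-2i was the lowest group and lay apart from every other (5.09 at most, against 5.11 and above). The 2i differences were 0.36 (SE 0.11) in J1, -0.38 (SE 0.13) in TKO and 0.23 (SE 0.15) in 3B3l.

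Another Tdgf1 probe gave 2i differences of the same signs, 0.38 (SE 0.10), -0.40 (SE 0.12) and 0.58 (SE 0.14). TKO was lower than J1 in 2i at both, by -0.63 (SE 0.12, limma adjusted p = 0.0021) and -0.83 (SE 0.11, adjusted p = 0.00019), and under 2-fold at each. At the second probe TKO-2i, at 3.21 to 3.47, overlapped 3B3l-serum at 3.34 to 3.52. The third probe spread more, from 0.93 to 2.90 among the J1-serum samples, and passed no line comparison. At that probe the means of 3B3l-serum (1.37), 3B3l-2i (1.89) and J1-serum (2.22) were below that of TKO-2i (2.23).

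Acvr2b, a type II activin receptor gene on chromosome 9, was the only tested gene of the set besides Lefty1 with a lower mean in J1-2i than in J1-serum. It read 3.82, 4.14, 4.26 and 3.53 in J1-serum and 3.33, 3.00 and 3.19 in J1-2i. In TKO it read 3.27 and 3.00 in serum and 2.98, 2.92 and 3.09 in 2i, and in 3B3l 3.65 and 4.10 in serum and 4.13 and 4.0016 in 2i. The groups fell into a higher set of J1-serum and both 3B3l groups and a lower set of J1-2i and both TKO groups, with no sample between. The 2i differences were -0.76 (SE 0.17), -0.14 (SE 0.21) and 0.19 (SE 0.23) in J1, TKO and 3B3l. TKO lay -0.80 from J1 in serum (SE 0.20, limma adjusted p = 0.0057) and 3B3l 0.89 from J1 in 2i (SE 0.21, adjusted p = 0.005), both under 2-fold, and the former was -0.67 (adjusted p = 0.066) without TKO-serum replicate 2. The latter passed 2-fold, at 1.18, when the background was modelled by normexp.

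Foxh1, the forkhead partner of Smad2 and Smad3, lies on chromosome 15. It read 1.41, 1.16, 1.14 and 1.11 in J1-serum, 1.56, 1.54 and 1.49 in J1-2i, 1.89 and 1.42 in TKO-serum, 1.96, 1.97 and 1.92 in TKO-2i, 2.01 and 1.92 in 3B3l-serum and 1.64 and 1.39 in 3B3l-2i. J1-serum had the lowest mean. The 2i differences were 0.33 (SE 0.12) in J1, 0.30 (SE 0.14) in TKO and -0.45 (SE 0.15) in 3B3l. 3B3l-serum lay 0.76 above J1-serum (SE 0.13, limma adjusted p = 0.00047), and TKO lay 0.45 above J1 in serum (adjusted p = 0.018) and 0.42 above it in 2i (adjusted p = 0.029), each under 2-fold. The serum value of TKO was 0.21 (adjusted p = 0.3) without TKO-serum replicate 1, and the 2i value had an adjusted p of 0.06 to 0.093 when any single J1-2i or TKO-2i array was left out. In 3B3l-2i the difference from J1 was -0.02 (SE 0.14, adjusted p = 0.94).

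Cer1, a secreted antagonist of Nodal, was not well above background on any of the 16 arrays. Its spot intensity ran from 36.7 to 73.5 and no difference is given for it.

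**Figure D3:**
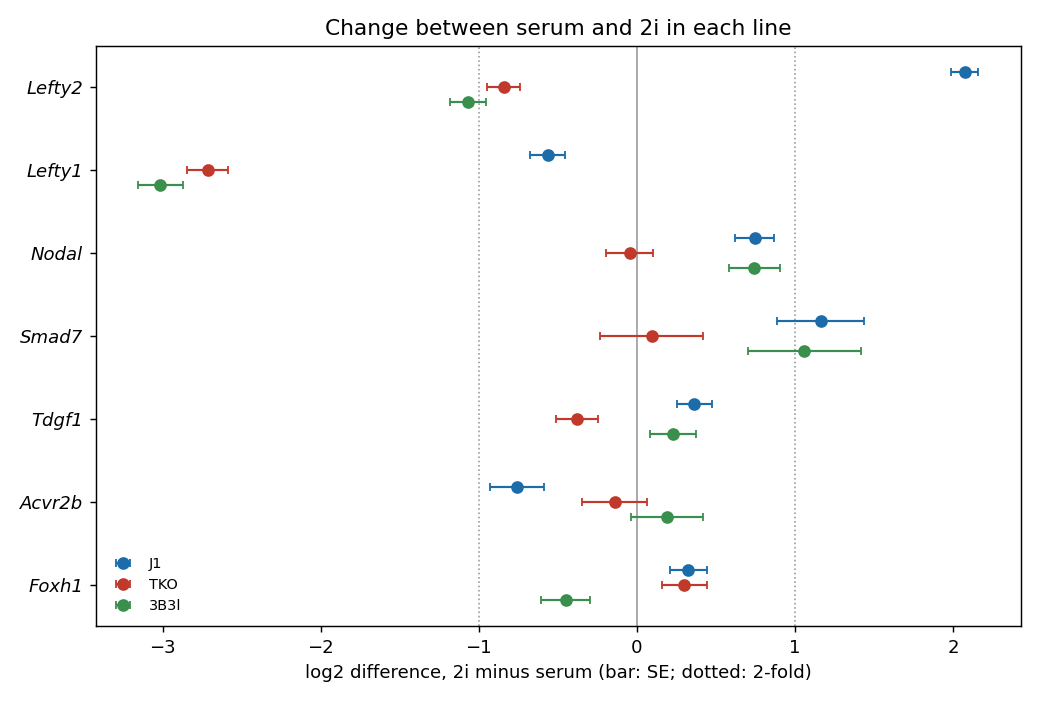
Mean log2 difference between 2i and serum (x axis) for each of the 7 genes (y axis) in J1, TKO and 3B3l, with bars of 1 SE and dotted lines at 2-fold. Lefty2 stands at 2.07 in J1 against -0.84 and -1.07 in the other lines, and Lefty1 at -0.57 against -2.71 and -3.01.

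In all, 2 of the 7 genes differed by 2-fold or more between the media in J1 (Lefty2 and Smad7, higher in 2i), with no test made, as did 24% of all genes, 10.5% higher and 13.5% lower. In TKO 1 did (Lefty1, lower) beside 17.5% of all genes, 7.61% higher and 9.92% lower. In 3B3l 3 did (Smad7 higher, Lefty1 and Lefty2 lower) beside 14.9%, 6.07% higher and 8.8% lower, and Lefty2 there came just under 2-fold (-0.996) without 3B3l-2i replicate 1. The response of these genes chose them, so nothing is read from these counts. The median 2i difference over the 7 genes was 0.36 in J1, -0.14 in TKO and 0.19 in 3B3l, beside 0.05, 0.07 and 0.0028 over all genes. In the line comparisons the median over the 6 genes other than Lefty2 was 0.59 for TKO and 0.17 for 3B3l in serum, and -0.12 and 0.06 in 2i, beside 0.0094, 0.13, 0.05 and 0.09 over all genes.

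**Figure D4:**
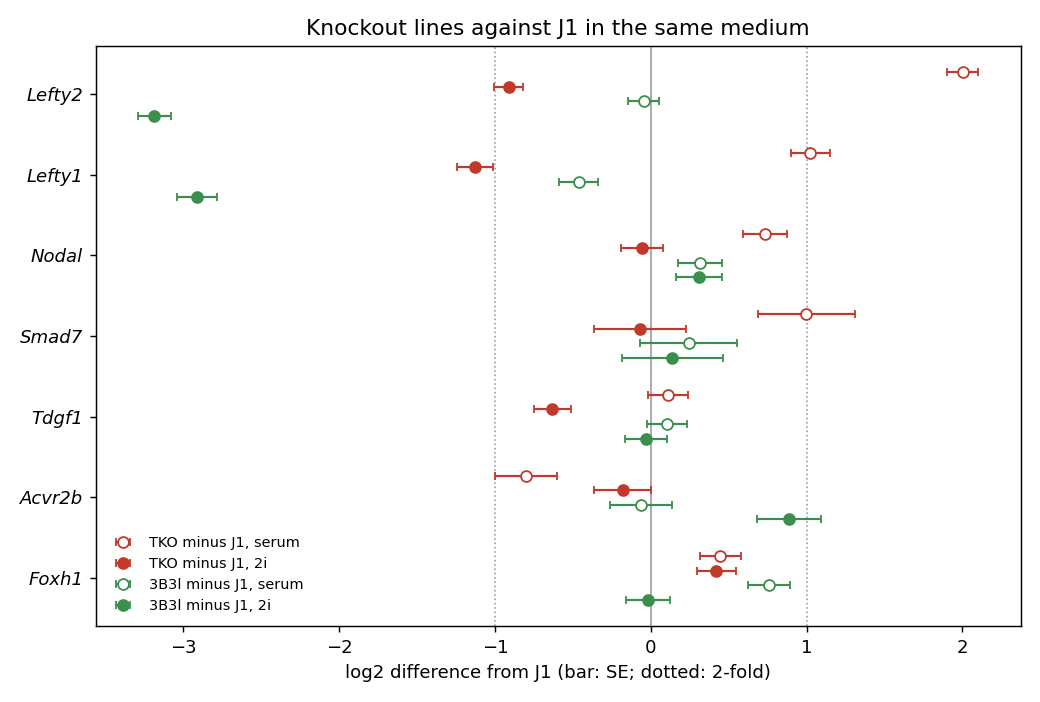
Mean log2 difference of TKO and 3B3l from J1 in the same medium (x axis) for each gene (y axis), with bars of 1 SE, open points for serum, filled points for 2i and dotted lines at 2-fold. Lefty1 passes 2-fold in 3 comparisons, at 1.02, -1.13 and -2.91; Lefty2 is drawn as a description only.

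The genes whose levels over the 16 arrays were most like those of Lefty2 were Olfr985 (Pearson r = 0.96), Tagln3 (0.96), Tbc1d9 (0.95), Ankrd49 (0.95) and Aldh1a2 (0.94). They were ranked among 13178 genes with a value on every array. Each of those was well above background on all 16 arrays or had group means spanning at least 2-fold. Olfr985 belongs to the olfactory receptor family and Aldh1a2 encodes an enzyme of retinoic acid synthesis. The 2i differences of these 5 genes in J1 were 1.60, 1.01, 1.38, 0.66 and 1.13, and each had a negative difference in TKO and 3B3l. The genes were picked for their likeness to Lefty2 over the same arrays, so these directions follow from the choice and nothing is read from them. Lefty1 ranked 1149 (r = 0.51), and Acvr2b had r = -0.81. The arrays fall into 6 groups, so these values describe group levels more than single samples.

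The wider pathway was followed through 50 further genes, of which 41 were tested. In 2i, 15 were called in J1 (6 higher, 9 lower), 18 in TKO (10 higher, 8 lower) and 16 in 3B3l (7 higher, 9 lower), beside 22.6% (10.1% higher, 12.6% lower), 15.8% (6.7% and 9.05%) and 13.5% (5.6% and 7.93%) of all genes. The median difference was -0.18, -0.11 and -0.20, against 0.05, 0.07 and 0.0028 over all genes. Dact2, Eomes and Pcsk6 were called higher in all 3 lines, and Fstl3, Gdf1 and Skil were among those called lower in all 3. Fst was called in opposite directions in different lines. The counts include 1 call in TKO (Tgfb2) and 1 in 3B3l (Gsc), both higher, where neither medium was well above background, so no direction is read from them.

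**Figure D5:**
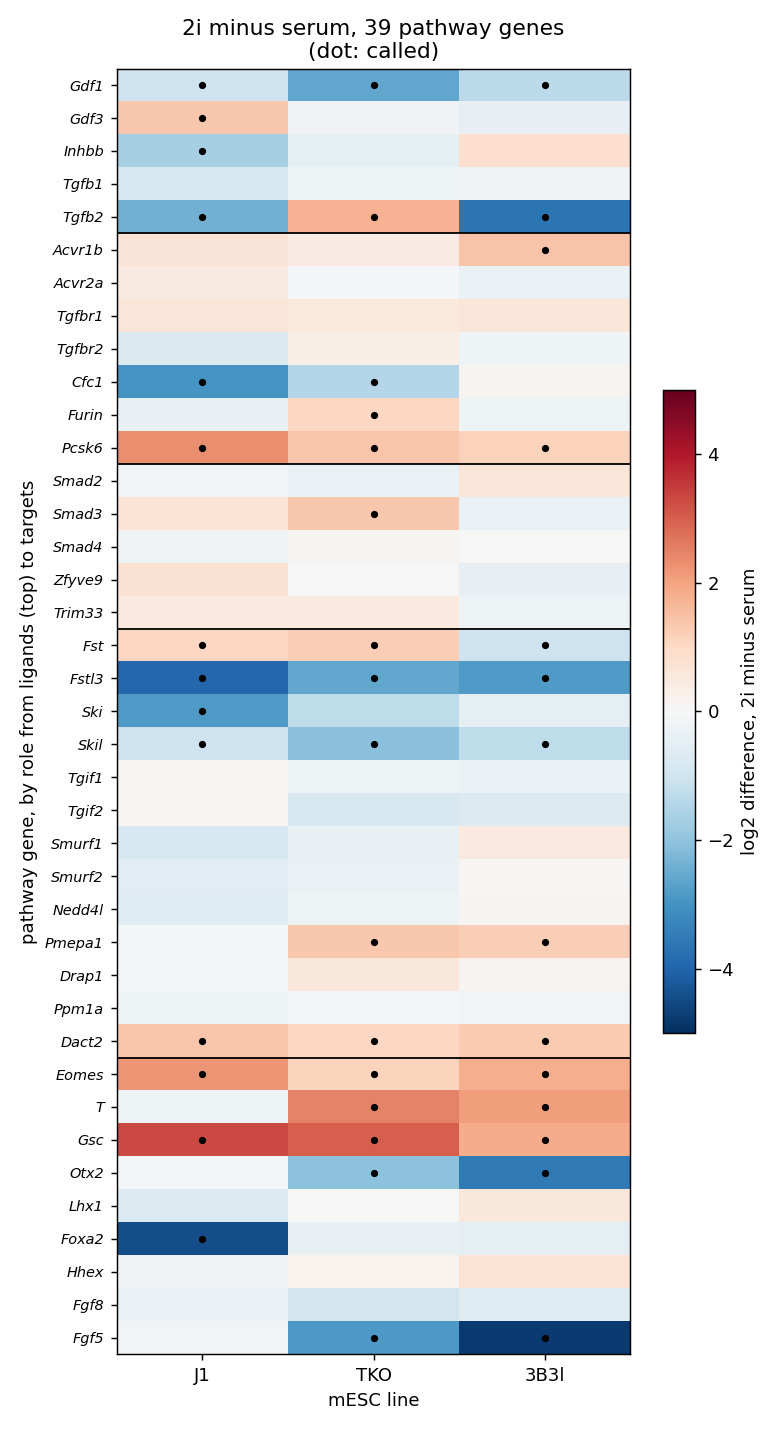
Log2 difference between 2i and serum (colour scale) of 39 of the 41 tested pathway genes (rows, from ligands to targets) in J1, TKO and 3B3l (columns); a dot marks a call and lines part the roles. Eomes and Pcsk6 are higher and Fstl3 lower in all 3 columns, while Otx2 and Fgf5 have dots in the TKO and 3B3l columns and Foxa2 in the J1 column.

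Among 10 further ligand genes 5 were tested, of which 1 was called higher and 3 lower in J1, 1 and 1 in TKO and 0 and 2 in 3B3l. Gdf3, a ligand that also uses the Tdgf1 co-receptor, rose by 1.35 (SE 0.10, adjusted p = 1.4e-07) in J1 and differed by -0.19 (SE 0.12, adjusted p = 0.23) in TKO and -0.39 (SE 0.13, adjusted p = 0.039) in 3B3l. Inhbb, which encodes an activin and inhibin subunit, changed by -1.65 (SE 0.16, adjusted p = 2.2e-06) in J1, where it was lower in 2i, differed by -0.47 (SE 0.19, adjusted p = 0.081) in TKO, and by 0.84 (SE 0.21, adjusted p = 0.0099, under 2-fold) in 3B3l, which passed 2-fold, at 1.04, without 3B3l-2i replicate 1. Tgfb2 was at least 3.33-fold lower in 2i in J1 and at least 9.59-fold lower in 3B3l, since the 2i samples were not well above background. In TKO neither medium was, and no fold is given. Gdf1, whose transcript is shared with Cers1 so that the source is uncertain, had differences of -1.03, -2.58 and -1.32 in J1, TKO and 3B3l, all called lower; the J1 call was lost at -0.90 without J1-2i replicate 2 and at -0.99 without J1-serum replicate 3.

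Of 8 genes for receptors, co-receptors and the convertases that cleave the Nodal precursor, 7 were tested. Pcsk6, a convertase gene, was higher in 2i by 2.32 (SE 0.17, adjusted p = 1.7e-07) in J1, 1.37 (SE 0.20, adjusted p = 0.00017) in TKO and 1.17 (SE 0.22, adjusted p = 0.0016) in 3B3l, the last becoming 0.81 without 3B3l-serum replicate 1 and 0.92 without 3B3l-2i replicate 2. Furin, the other convertase gene, was called in TKO (1.05, SE 0.29, adjusted p = 0.015), and the value was 0.58 (adjusted p = 0.2) without TKO-serum replicate 2 and 0.94 without TKO-2i replicate 1. Cfc1, a co-receptor gene related to Tdgf1, was at least 2.79-fold lower in 2i in J1 and in TKO and was not well above background in either 3B3l group.

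The 5 signal transducer genes gave 1 call. Smad3 was higher in 2i in TKO by 1.35 (SE 0.18, adjusted p = 8.8e-05), by 0.68 (SE 0.15, adjusted p = 0.0024) in J1 and by -0.33 (SE 0.20, adjusted p = 0.3) in 3B3l. Smad2 and Smad4 passed the test in no line.

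Of 15 inhibitor genes 13 were tested, with 2 called higher and 3 lower in J1, 3 and 2 in TKO and 2 and 3 in 3B3l. Dact2, which promotes degradation of the receptors, was higher by 1.37 (SE 0.16, adjusted p = 1.4e-05) in J1, 1.05 (adjusted p = 0.00099) in TKO and 1.29 (adjusted p = 0.00058) in 3B3l, and the TKO value was 0.73 without TKO-serum replicate 2. Fst, which encodes the activin-binding protein follistatin, was higher by 1.04 (SE 0.20, adjusted p = 0.00079) in J1 and 1.24 (SE 0.24, adjusted p = 0.0014) in TKO and lower in 3B3l at -1.05 (SE 0.26, adjusted p = 0.0096). The J1 call was lost without J1-serum replicate 1 (0.82) or J1-2i replicate 3 (0.9977), and the 3B3l call without 3B3l-2i replicate 2 (-0.93). Its relative Fstl3 was at least 9.76-fold lower in 2i in J1, at least 5.85-fold lower in TKO and at least 2.12-fold lower in 3B3l, where no 2i sample was well above background. The nuclear repressor genes Ski and Skil were both lower in J1, Ski at least 3.59-fold and Skil by -1.03 (SE 0.13, adjusted p = 2.5e-05). The J1 value of Skil fell just under 2-fold without J1-serum replicate 1 or 4 or J1-2i replicate 1 or 2, at -0.99, -0.99, -0.98 and -0.99.

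Of 12 target genes 11 were tested, with 2 called higher and 2 lower in J1 and 3 and 4 in each of TKO and 3B3l. Gsc, a homeobox gene of the anterior primitive streak, was at least 5.36-fold higher in 2i in J1 and at least 6.90-fold higher in TKO, against serum samples at background. In 3B3l it was well above background in neither medium, so no fold is given. Eomes, a T-box gene induced by Nodal, was higher in 2i by 2.22 (SE 0.18, adjusted p = 5e-07) in J1, 1.12 (SE 0.22, adjusted p = 0.0015) in TKO and 1.81 (SE 0.24, adjusted p = 9.3e-05) in 3B3l, and the TKO value was 0.82 without TKO-serum replicate 2 and 0.96 without TKO-2i replicate 3. Foxa2 was at least 8.15-fold lower in J1-2i than in J1-serum and was well above background in no TKO or 3B3l sample. The J1 differences of Foxa2, Cfc1, Fstl3 and Tgfb2 set J1-2i against the J1-serum samples that carried the primitive endoderm marker signal given above, and the part of that signal in them was not tested.

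Otx2, Fgf5 and T, also among the targets, are named after their values were seen. Otx2, a homeobox gene of the epiblast, read 3.67 to 3.84 in J1-serum and 3.63 to 3.69 in J1-2i, whereas it went from 3.91 and 4.01 to 1.72 to 2.18 in TKO and from 3.44 and 3.47 to -0.01 and -0.16 in 3B3l. The 2i differences were -0.09 (SE 0.10, adjusted p = 0.53), -2.04 (SE 0.12, adjusted p = 8e-08) and -3.54 (SE 0.14, adjusted p = 3.2e-09). Fgf5, a gene of the primed epiblast, had no J1 sample well above background and was at least 2.62-fold lower in 2i in TKO and at least 6.92-fold lower in 3B3l. T (brachyury), a primitive streak gene, was at least 2.39-fold higher in 2i in TKO, where 1 of 3 samples was well above background, and at least 3.52-fold higher in 3B3l, and was at background in J1.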

How the data were processed

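Total RNA of 16 mESC samples was labelled with Cy3 and hybridised to one-colour Agilent arrays of 62976 spots on 3 slides scanned on 2 days. The authors' scans were read with Feature Extraction 11.5.1.1 per the file headers, and the deposited spot intensity is the processed signal after background subtraction. The authors also deposited a normalized log2 value table, used as an alternative; of its 16 columns, 13 matched another array of the same group best and 0 an array of another group, so replicate numbers in it are uncertain. Its scale is log2, with column medians of 8.28 to 8.43, and its normalization is not given in the sources used here.

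Here log2 intensity minus each array's 75th percentile (1019 to 1797 intensity units) over non-control spots was used, with outlier-flagged spots left out, saturated spots kept and spots of a probe averaged. Accessions were named through RefSeq tables. Probes rated well above background across all samples of 1 or more groups were tested (27126 of 55681; 39.7 to 49% of spots were well above background on an array). Group means of all 6 groups were fitted with limma 3.58.1 in R 4.3.3, with Benjamini-Hochberg adjustment over all tested probes. Calls were made at 2-fold or more with an adjusted p no higher than 0.05. A gene was represented by its brightest tested probe. Where a group was not well above background, a fold is a bound: the brighter mean over the higher of the lowest signal well above background and the dim probe's own, per array. The number of arrays limits precision.

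The member genes and gene lists were chosen with earlier results of these data known. Named pathway genes were at most 2 per role and direction among those called in a 2i response, ranked by size in J1, then TKO, then 3B3l, plus those called alike in all 3 lines. Of the pathway genes tested, 2 are counted but not reported by name here. The fit was tested on simulated data. Replicate numbers did not pair the samples: deviations of same-numbered samples correlated between -0.27 and 0.29, and 5 of 16 arrays lay closest to their own number. Alternatives were normexp, quantile and median scaling, 2 other probe filters, the deposited table, slide and replicate blocks, slide 1 alone, the groups of a comparison alone, any probe, no fold limit, an unpaired t-test and leaving out each array.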

Additional observations from a re-analysis of the deposited data

Results flagged for a closer look

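Lefty2 was higher in 2i than in serum across all J1 samples and lower across all TKO and 3B3l samples. Its response lay -2.92 from that of J1 in TKO and -3.14 in 3B3l, differences that were not tested because they chose the gene. Tdgf1 in TKO (-0.74 from the J1 response) and Foxh1 in 3B3l (-0.78) also had all 2i samples on opposite sides of serum in the 2 lines. Both differences were under 2-fold, and neither was tested. The media did not overlap for 63.2%, 62.5% and 61.3% of all genes in J1, TKO and 3B3l, and the share on opposite sides was not counted. Among the 41 tested pathway genes the 2i response differed from that of J1, by fold and adjusted p, for 8 above and 7 below it in TKO (15.2% of all genes in either direction) and for 9 above and 10 below it in 3B3l (17.2% of all genes). Both comparisons subtract the same J1 arrays, so a gene that passed in each is not independent evidence.

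In TKO, 5 of the 8 above and 1 of the 7 below had a group with no array well above background, as did 6 of the 9 and 3 of the 10 in 3B3l, and no size is given for them. Of the others in TKO, the response was above that of J1 for Inhbb (1.18, adjusted p = 0.0036), Furin (1.44, adjusted p = 0.014) and Pmepa1 (1.44, adjusted p = 0.0027). Those below it included Gdf3 (-1.55, adjusted p = 1.2e-05), Otx2 (-1.96, adjusted p = 3.1e-06), Eomes (-1.10, adjusted p = 0.012), Gdf1 (-1.56, adjusted p = 6.9e-05) and Skil (-1.04, adjusted p = 0.0022). In 3B3l it was above for Inhbb (2.48, adjusted p = 1.9e-05), Pmepa1 (1.29, adjusted p = 0.0071) and Smurf1 (1.30, adjusted p = 8.7e-05). Those below it included Gdf3 (-1.75, adjusted p = 5.9e-06), Otx2 (-3.45, adjusted p = 4.5e-08), Pcsk6 (-1.15, adjusted p = 0.0085), Smad3 (-1.01, adjusted p = 0.0099), Zfyve9 (-1.20, adjusted p = 0.0027) and Fst (-2.09, adjusted p = 0.00045). With single arrays left out, the TKO 2i difference was 0.58 to 1.53 for Furin and 0.82 to 1.42 for Eomes. For Skil in TKO it was -2.26 to -1.89. In 3B3l it was 0.81 to 1.53 for Pcsk6 and -0.64 to -0.01 for Smad3. The response differences of these genes can thus fall under 2-fold when 1 array is left out. Pmepa1, Zfyve9 and Smurf1 are named after their values were seen, and whether TKO and 3B3l differ from each other was not tested. The response was also above that of J1 for all 10 tested primitive endoderm markers in each line (median 3.42 in TKO and 3.65 in 3B3l) and for 11 and 8 of the 16 tested fibroblast markers, and the part of these cells' RNA in the values above was not tested.

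J1-serum replicate 1 stood apart from the other J1-serum samples for Pcsk6 (0.68 against 0.99 to 1.05) and Furin (-0.38 against 0.28 to 0.30). Of 27 genes examined for such a sample 2 were picked, and chance picks about 1 in 20. It is the only J1 sample on slide 3.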

How the results depend on the processing

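The 2i responses of 2-fold or more among the 7 genes (6 of 21) numbered 5 to 6 under the alternatives that gave them, and from 5 to 6 when single arrays were left out. Calls in the line comparisons (3) numbered 2 to 4, except 12 without a fold limit, and 3 to 4 when single arrays were left out. They were 4 with the replicate block, although the numbers did not pair the samples, and the other was Smad7 between TKO and J1 in serum (log2 1.08, adjusted p = 0.042). With the replicate block the pathway counts were 14, 17 and 16 in J1, TKO and 3B3l, against 15, 18 and 16. Leaving out single arrays gave 13 to 15, 16 to 18 and 14 to 17.

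Pathway counts fell to 8, 10 and 9 when a probe had to be well above background on all 16 arrays. That filter tests fewer genes, and the share of all genes called under it is not given here. Without a fold limit the J1 count was 26. By an unpaired t-test after Benjamini-Hochberg adjustment, the 3B3l count was 1 with 2 arrays in each group, and the cause was not tested. Lefty1 in TKO against J1 in serum fell under 2-fold in 3 alternatives besides that leaving out an array: quantile scaling (0.98), the deposited table (0.98) and slide 1 alone (0.99). No called difference of a named gene changed its sign under these alternatives. Values below the lowest well-above-background signal give bounds only, and probes near saturation understate differences.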
